A study of Arabidopsis thaliana with 4 samples.

Results

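Expression of 10 *Arabidopsis* loci was followed in dissected meristem and leaf tissue: the class I *KNOX* homeobox genes *STM* (AT1G62360), *KNAT1* (AT4G08150), *KNAT2* (AT1G70510) and *KNAT6* (AT1G23380), the class II genes *KNAT3* (AT5G25220), *KNAT4* (AT5G11060), *KNAT5* (AT4G32040) and *KNAT7* (AT1G62990), and the genes *AS1* (AT2G37630) and *AS2* (AT1G65620). They were taken by family and by the known link between the families, with no rule on their values, and are 10 of the 25665 loci that the array probes name. Earlier results of these data were known when they were chosen. Every one of the 10 has 1 probe with 1 spot. The samples were meristem-enriched tissue and young leaves, 2 biological replicates each, cut by hand from plants 9 weeks old that had grown on soil in short days of 8 h light and 16 h darkness. All plants, in both groups, carried the *clv3-9* allele in the Columbia background, a point mutation that removes the function of the stem cell signal *CLV3* and leaves its transcript in place, so the contrast is one of tissues within a mutant with an enlarged meristem and holds no wild type. Total RNA was labelled with Cy3 from an oligo-dT primer and hybridised to 4 one-colour Agilent arrays. The study asked how histone methylation by Polycomb proteins relates to expression in dividing and differentiated tissue, and the arrays are its expression readout.

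Class I *KNOX* genes encode homeodomain proteins that keep cells of the shoot apical meristem undifferentiated and are switched off where a leaf starts. They act as dimers with BELL homeodomain proteins, raise cytokinin and lower gibberellin. *AS1*, a MYB protein, and *AS2*, a LOB domain protein, form a complex that represses *KNAT1*, *KNAT2* and *KNAT6* in leaves, whereas *STM* acts against *AS1* in the meristem. Class II genes are active in many differentiating organs, and *KNAT7* acts in the formation of secondary cell walls. KNATM is a short relative that has lost the homeodomain.

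The study designed primers for transcripts of *STM*, *KNAT2* and *KNAT6*, all on chromosome 1, to measure them by RT-PCR apart from the arrays. They are shown, 5′ to 3′, because they define which transcripts of the class I genes the study followed by RT-PCR. The paper reports those measurements for wild type and Polycomb mutant plants, and none for the dissected samples of the arrays. They are therefore no second measurement of the contrast between tissues given here. The RT-PCR measurements were not analysed here.
STM forward: aattgtcagaaggttggagc
STM reverse: cgttgaaggaagaccatagc
KNAT2 forward: cgcggtcattgcttctttgttgg
KNAT2 reverse: gctctttcagatgatggtgcggtt
KNAT6 forward: gtggccttaccctactgaaggaga
KNAT6 reverse: ttttggtctaaccccgttgcatca
The primers are between 20 and 24 bases long. The array files give the positions of the probes and no probe sequence. Whether a probe also binds the transcript of a related *KNOX* gene was not tested.

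The values are spot intensities, given below as log2 signals after each array was aligned at its 75th percentile, and a probe is compared only with itself between arrays. The percentile lay at an intensity of 874 and 978 on the meristem arrays and of 606 and 794 on the leaf arrays, and between 60.1% and 63.3% of the probes were well above background, the scanner software's own detection call. A locus passed when limma, fitted over 23260 expressed loci, gave an adjusted p of at most 0.05, and it was counted as at least 4 times higher when the log2 difference was also at least 2. With 2 arrays against 2, a permutation test of a single gene cannot go below p = 0.333, so the calls rest on the fit over all loci. The median difference of all loci was 0.10, with 5th and 95th percentiles of -2.29 and 2.36. Of the meristem markers, *CLV3* was 5.61 (SE 0.12) higher in the meristem and *WUS*, which was not well above background in the leaf, was at least 33.0-fold higher, while the receptor gene *CLV1* was 1.23 lower (log2 difference -1.23, SE 0.21, adjusted p = 0.0108). After a normexp background correction none of these passed: 3.16 (adjusted p = 0.0623) for *CLV3*, 1.78 (adjusted p = 0.198) for *WUS* and -1.17 (adjusted p = 0.121) for *CLV1*. The summed scaled signal of the meristem markers was 4610 and 5740 in the meristem and 7700 and 8650 in the leaf. In the leaf this sum was nearly all *CLV1*, with log2 signals of 12.90 and 13.07 against 4.91 and 4.77 for *CLV3*. All 3 green leaf markers (*RBCS-1B*, *LHCB1.4*, *CA1*) were higher in the leaf, and their summed scaled signal was 3760 and 1260 on the meristem arrays against 406000 and 345000 on the leaf arrays. None of 3 markers of leaf primordia (*FIL*, *YAB3*, *KAN1*) passed in either direction, and their summed signal was 1880 and 1440 against 1550 and 1490. Of 4 flower markers 2 were higher in the meristem, the meristem identity gene *LFY* with 8.85 and 9.51 against 3.77 and 3.18 and *AP1* with 6.58 and 7.76 against 3.66 and 3.86. *LFY* was well above background on 1 leaf array only. After normexp neither passed (2.44, adjusted p = 0.127 for *LFY* and 1.07, adjusted p = 0.365 for *AP1*). The flower list summed to 614 and 985 in the meristem and to 64.8 and 54.3 in the leaf, and *AG* was well above background on 1 array only. What these markers contribute to the results below was not tested.

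The 10 genes fell into distinct patterns. All 4 class I genes were higher in the meristem by at least 4 times, and so were *AS1* and *AS2* by less. Of the class II genes *KNAT4* and *KNAT3* were higher in the leaf, and *KNAT5* and *KNAT7* did not pass. Thus 6 of 10 passed towards the meristem, where 27.1% of all loci tested did, and 2 of 10 towards the leaf, where 21.6% did. In either direction 8 of 10 passed, against 48.6% of all loci. At the limit of 4 times the counts were 4 of 10 towards the meristem, against 6.55% of all loci, and 1 of 10 towards the leaf, against 6.41%. The median size of the difference was 2.17 over the 10 genes and 0.59 over all loci. The arrays of the tissues did not overlap for 9 of the 10 genes, which was also true of 79.3% of all loci tested. In bulk tissue, fewer cells that express a gene and less RNA per cell cannot be told apart.

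**Figure D1:**
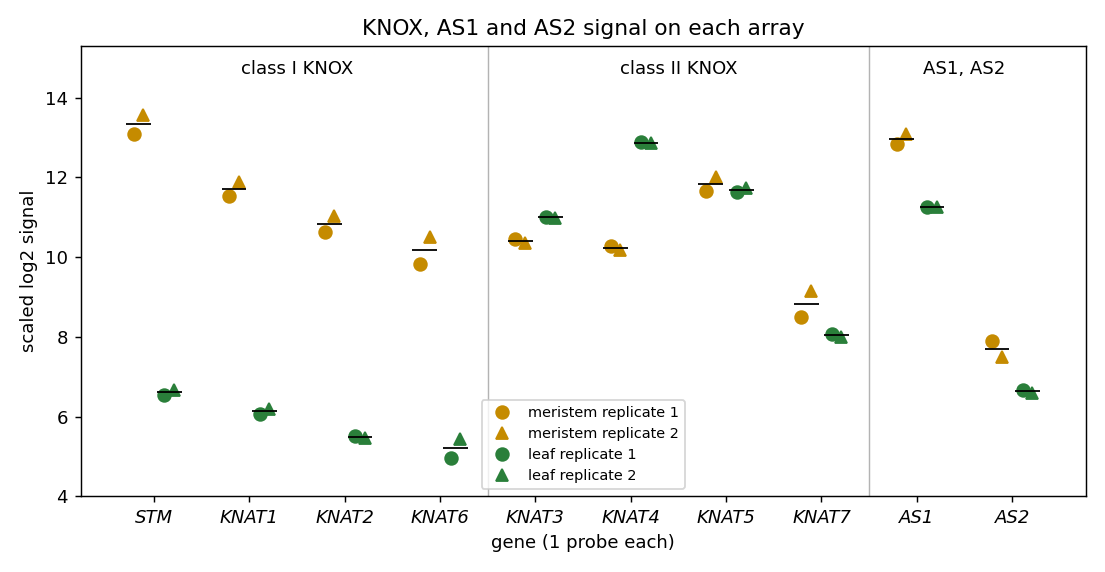
Scaled log2 signal (vertical axis) of the 10 genes on each of the 4 arrays, meristem in ochre and leaf in green, with replicate 1 as circles, replicate 2 as triangles and the group mean as a line. The class I genes have leaf values between 4.97 and 6.66 and meristem values between 9.84 and 13.57, and the tissues overlap in *KNAT5* alone. Heights are not to be compared between genes, since each gene has a probe of its own.

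*STM*, which is needed to form and keep the shoot meristem, gave scaled log2 signals of 13.10 and 13.57 in the meristem and of 6.55 and 6.66 in the leaf. The unscaled intensities were 9565 and 14839 against 70.8 and 101. Both meristem arrays lay far above both leaf arrays. The log2 difference was 6.73 (SE 0.20, 95% confidence interval 6.18 to 7.27, adjusted p = 0.000464), or 106-fold. Among the 18559 loci well above background on all arrays, *STM* took place 9 when ordered by the difference towards the meristem.

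*KNAT1*, also called *BREVIPEDICELLUS* and active in the shoot meristem and stem, had signals of 11.54 and 11.88 in the meristem and of 6.06 and 6.20 in the leaf. The difference of 5.58 (SE 0.17, adjusted p = 0.000464) corresponds to 48.0-fold. *KNAT2*, a class I gene of the meristem and the flower, had signals of 10.62 and 11.03 against 5.52 and 5.45. Its difference was 5.34 (SE 0.18, adjusted p = 0.000489), or 40.6-fold. For both genes the replicates of a tissue lay about 0.4 apart at most, far less than the gap between the tissues.

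*KNAT6*, a close relative of *KNAT2* that acts at organ boundaries, had signals of 9.84 and 10.51 in the meristem and of 4.97 and 5.43 in the leaf. It was the class I gene with the widest spread between replicates, with an SD of 0.48 in the meristem and of 0.33 in the leaf. The difference was 4.97 (SE 0.30, adjusted p = 0.000932), or 31.4-fold. The *KNAT6* probe names 2 transcripts of its locus, so the forms of this gene are not told apart. The places of *KNAT1*, *KNAT2* and *KNAT6* among the ordered loci were 28, 40 and 57.

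All 4 class I probes were well above background on the leaf arrays too, but close to it. The raw spot means were between 1.50 and 3.19 times the local background in the leaf and between 17.6 and 334 times in the meristem. The size of the class I differences depended on how background was removed, their direction did not. After a normexp correction with an offset of 50 the differences were 5.68 for *STM*, 4.13 for *KNAT1*, 3.56 for *KNAT2* and 2.98 for *KNAT6*, and that of *KNAT6* no longer passed (adjusted p = 0.0633). When the arrays were aligned on the spike-in controls, the class I differences were larger, up to 7.49 for *STM*.

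The difference of *STM* exceeded that of *KNAT1* by 1.14 (SE 0.27). Next in the order, the gap between *KNAT1* and *KNAT2* was 0.24 (SE 0.25) and that between *KNAT2* and *KNAT6* 0.37 (SE 0.35), each about the size of its SE. These gaps are the same under every alignment by 1 constant per array, because a ratio of 2 probes on the same array carries no such constant. The ratio of *STM* to *KNAT6* was 3.37 times higher in the meristem than in the leaf, and that of *STM* to *KNAT1* 2.21 times. Gaps and ratios of the class I genes depend on how background was removed, since their leaf spots lay close to it. After normexp the differences were 5.68 for *STM*, 4.13 for *KNAT1*, 3.56 for *KNAT2* and 2.98 for *KNAT6*, so the gaps were wider. The SE of a gap, here and below, takes the 2 genes as independent. Within arrays, the log2 ratio of *KNAT1* to *KNAT2* changed by 0.24 and that of *KNAT1* to *KNAT6* by 0.61, both without overlap of the tissues. The ratio of *KNAT2* to *KNAT6* changed by 0.37, and there the tissues overlapped. Of all single loci tested 79.3% did not overlap, and no such share was taken over ratios. *STM* thus had the largest difference of the class I genes, and the full order of the others is not resolved on 4 arrays.

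The second meristem array gave higher signals for the class I genes than the first, by 0.47 for *STM*, 0.34 for *KNAT1*, 0.40 for *KNAT2* and 0.67 for *KNAT6*. Over the 18559 loci the same difference had a median of 0.00, and 14.5% of the loci reached 0.3 or more. On that array *LFY* and *AP1* were also higher, by 0.66 and 1.18, while the other flower markers *AG* (-1.62) and *AP3* (-0.33) and the leaf marker *LHCB1.4* (-1.74) were lower. *CLV3* differed little (-0.03). The leaf replicates lay within 0.14 of each other for 9 of the 10 genes, with *KNAT6* (0.46) as the exception. Whether the dissections differed in their share of tissue was not tested.

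**Figure D2:**
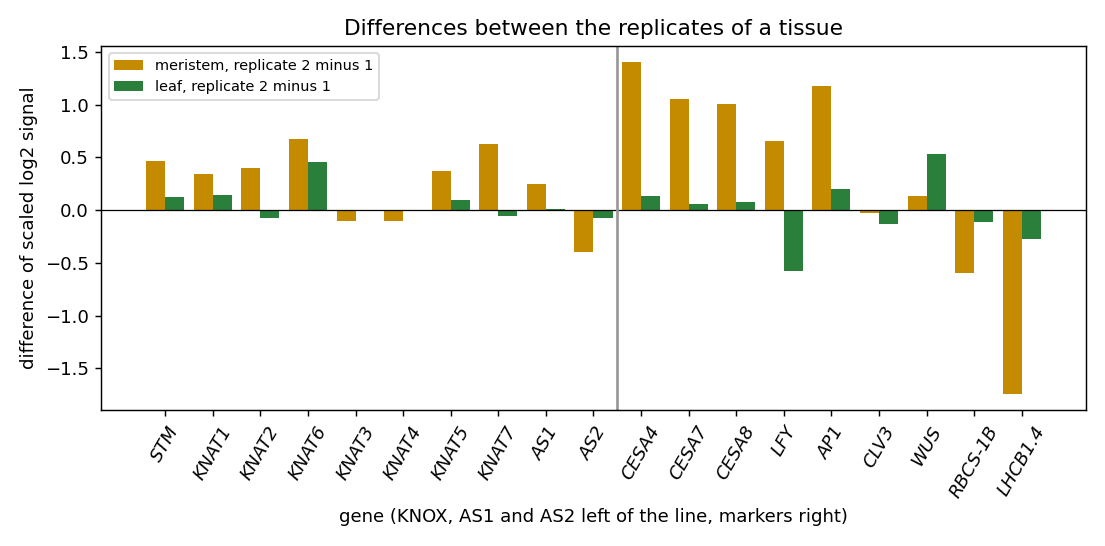
Difference of scaled log2 signal between replicate 2 and replicate 1 (vertical axis) in the meristem (ochre) and the leaf (green) for the 10 genes, left of the line, and for 9 of the markers, right of it. On the second meristem array the class I genes lie 0.34 to 0.67 higher, *CESA4*, *CESA7* and *CESA8* 1.01 to 1.4 higher and *LHCB1.4* lower (-1.74).

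By the distance between centred profiles over the 4 arrays, the loci most like *STM* were *AGO5* (AT2G27880), *ACO1* (AT2G19590) and AT1G26680. *AGO5* encodes an argonaute protein and lay at a distance of 0.18 from *STM*, with a difference between tissues of 6.65. *ACO1*, annotated on the array as an enzyme of ethylene synthesis, lay at 0.23 with a difference of 6.51. AT1G26680, which the array annotates as a B3 family transcription factor, lay at 0.33 with 6.88. Over 4 arrays this likeness is mainly one of the size of the tissue difference.

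Among class II genes *KNAT4* differed most. Its signals were 10.29 and 10.19 in the meristem and 12.88 and 12.87 in the leaf. Both leaf arrays were higher, and the replicates lay within 0.10 of each other. The log2 difference was -2.63 (SE 0.12, 95% confidence interval -2.96 to -2.31, adjusted p = 0.000616), 6.20-fold higher in the leaf. With alignment on the spike-in controls it was -1.86 and no longer reached 4 times.

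*KNAT3* had signals of 10.46 and 10.36 in the meristem and of 11.00 and 10.99 in the leaf, which do not overlap. The difference was -0.59 (SE 0.12, 95% confidence interval -0.92 to -0.26, adjusted p = 0.0190), 1.50-fold higher in the leaf. Its direction turned to 0.18 with alignment on the spike-in controls. The call was lost without any scaling (-0.17, SE 0.37 as for all 10 genes, adjusted p = 0.713) and after normexp (-0.53, adjusted p = 0.143). It was also lost without meristem replicate 2 (adjusted p = 0.0509), without leaf replicate 1 (adjusted p = 0.116) and without leaf replicate 2 (adjusted p = 0.107). Relative to the median of all loci, *KNAT3* lay 0.68 lower in the meristem (-0.68) under every alignment by 1 constant per array. Its probe is placed on a span of 154 bases, whereas the other 9 probes span 60 bases.

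*KNAT5* had signals of 11.65 and 12.02 in the meristem and of 11.64 and 11.74 in the leaf, and it was the only gene whose tissues overlapped. The difference was 0.14 (SE 0.17, 95% confidence interval -0.33 to 0.62, adjusted p = 0.527), and its sign turned (-0.15) when arrays were aligned at their medians. The interval covers a difference in either direction, so the tissues are not shown to be equal. With the spike-in controls *KNAT5* was 0.91 higher in the meristem and passed (adjusted p = 0.00792). Without meristem replicate 2 the difference was -0.04.

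*KNAT7* had signals of 8.51 and 9.14 in the meristem and of 8.07 and 8.00 in the leaf. Both meristem arrays were higher, by unequal amounts. The difference was 0.79 (SE 0.25, 95% confidence interval 0.13 to 1.46) and missed the threshold (adjusted p = 0.0578). It was 0.48 without meristem replicate 2 and 1.11 without meristem replicate 1. With median scaling it was 0.50 (adjusted p = 0.185) and after normexp 0.61 (adjusted p = 0.265). Without meristem replicate 1 it was 1.11 and passed (adjusted p = 0.0101), and it passed as well without scaling (1.21, adjusted p = 0.00403), with the spike-in controls (1.56, adjusted p = 0.00433) and when only loci well above background in a tissue were tested (adjusted p = 0.0353).

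Some vascular and secondary wall markers, like *KNAT7*, were higher on the second meristem array than on the first. The cellulose synthase genes of the secondary wall gave 8.59 and 9.99 in the meristem against 8.74 and 8.86 in the leaf for *CESA4*. The values were 8.48 and 9.53 against 8.29 and 8.34 for *CESA7*, and 8.78 and 9.79 against 8.86 and 8.94 for *CESA8*. All 3 were thus higher on the second meristem array, as *KNAT7* was by 0.63 and *KNAT6* by 0.67, and none of the 3 passed between the tissues. Of the other listed markers, *APL* (0.54), *SUC2* (0.50) and *WOX4* (0.21) were higher on that array, and *ATHB8* (-0.27) and *PXY* (-0.04) lower. Of the whole list of 8 vascular and secondary wall markers, the cambium genes *PXY* and *WOX4* were higher in the meristem and the phloem gene *SUC2* was higher in the leaf, and the list summed to 9670 and 11600 in the meristem and to 12700 and 13200 in the leaf. After normexp *PXY* still passed (1.57, adjusted p = 0.0323), and *WOX4* (0.73, adjusted p = 0.327) and *SUC2* (-1.65, adjusted p = 0.0658) did not. The part of the vascular and secondary wall markers in the value of *KNAT7* was not tested.

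Within arrays, the class II genes moved apart from each other. The ratio of *KNAT4* to *KNAT3* was 4.12 times lower in the meristem than in the leaf (change of the log2 ratio -2.04), with an SD between replicates of 0.00 in the meristem and 0.01 in the leaf. The ratio of *KNAT4* to *KNAT5* changed by -2.78, and that of *KNAT7* to *KNAT4* by 3.43, or 10.7 times. The ratio of *KNAT3* to *KNAT5* changed by -0.73, with an SD of 0.33 in the meristem. The arrays of the tissues did not overlap for any of these 4 ratios. That share was not taken over ratios of other loci, and 79.3% of single loci did not overlap. The 4 ratios carry no constant of an array and changed by unequal amounts.

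**Figure D3:**
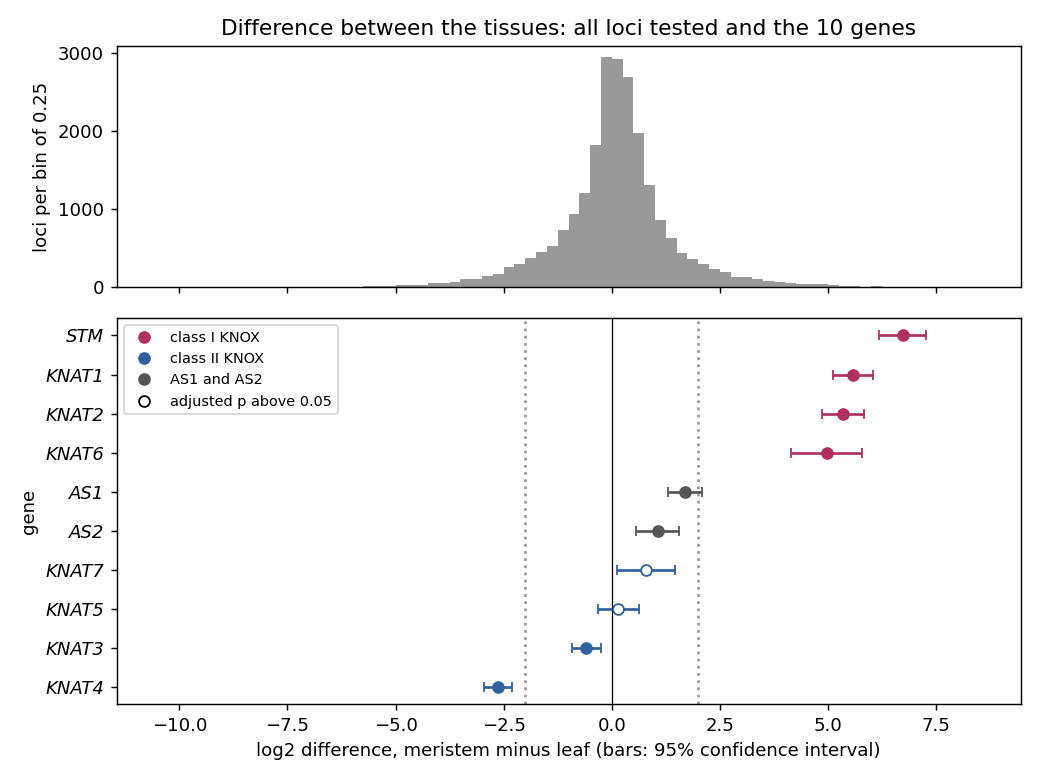
Top, number of loci (vertical axis) by log2 difference, meristem minus leaf (horizontal axis), for the 23260 loci tested. Bottom, the 10 genes on the same axis with 95% confidence intervals, class I in red, class II in blue, *AS1* and *AS2* in grey, open circles for the genes that did not pass, and dotted lines at a log2 difference of 2 and -2. The class I genes lie from 4.97 to 6.73, outside the 5th to 95th percentile of all loci (-2.29 to 2.36), *KNAT4* lies at -2.63, and *KNAT3*, at -0.59, turns to 0.18 with alignment on the spike-in controls.

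*AS1* was higher in the meristem, with signals of 12.84 and 13.09 against 11.26 and 11.27 in the leaf. The log2 difference was 1.70 (SE 0.14, 95% confidence interval 1.31 to 2.09, adjusted p = 0.00179), or 3.25-fold, and no alternative removed the call. The leaf signal of *AS1* was far above background, with raw spot means of 37.1 and 51.5 times the local background. *AS1* was thus detected in both tissues.

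*AS2* had signals of 7.90 and 7.50 in the meristem and of 6.67 and 6.60 in the leaf. The tissues did not overlap. The difference was 1.06 (SE 0.18, 95% confidence interval 0.57 to 1.55, adjusted p = 0.0112), or 2.09-fold. It no longer passed without leaf replicate 2 (adjusted p = 0.0528), after normexp (0.53, adjusted p = 0.543) and in the methods' t-test with Benjamini-Hochberg values (adjusted p = 0.0867). The *AS2* spots were dim, between 2.63 and 6.58 times the local background.

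In the meristem the signal of *AS2* on the second array was lower than on the first (difference -0.40), as it was by less for *KNAT3* and *KNAT4* (-0.10 each), while that of *AS1* was higher by 0.25. The difference of *AS1* exceeded that of *AS2* by 0.64 (SE 0.23), and the gap between *AS2* and *KNAT7* was 0.27 (SE 0.30), about the size of its SE. Between *KNAT6* and *AS1*, the lowest class I gene and the next gene in the order, the gap was 3.27 (SE 0.33).

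**Figure D4:**
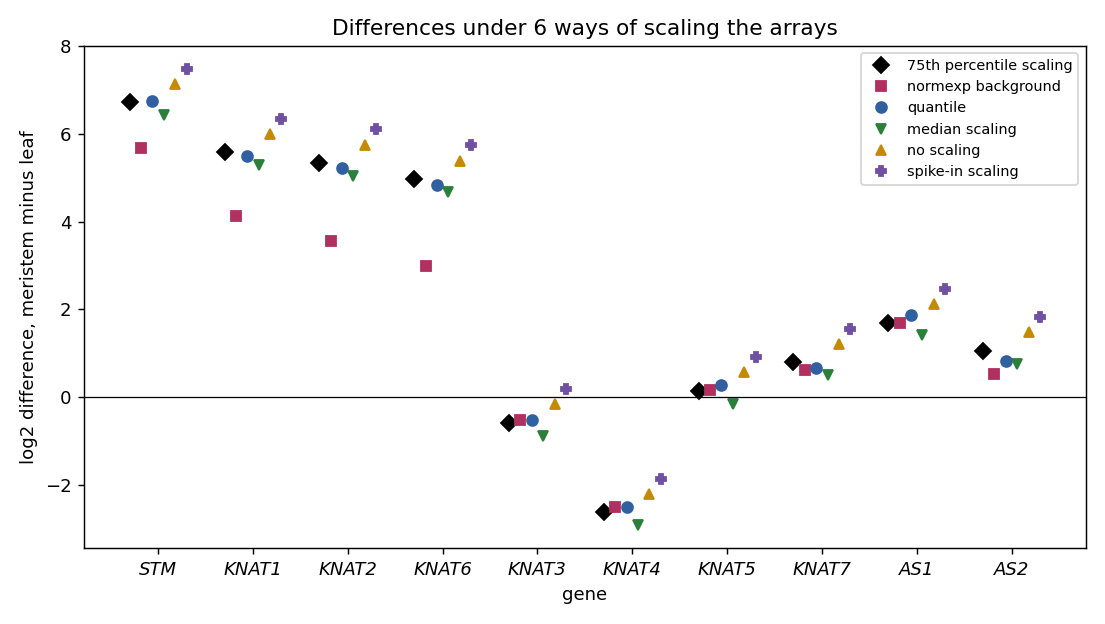
Log2 difference, meristem minus leaf (vertical axis), of the 10 genes under 6 ways of correcting and aligning the arrays, one symbol each. The class I genes, *AS1*, *AS2* and *KNAT7* lie above 0 and *KNAT4* below 0 under all 6, *KNAT5* changes side with median scaling (-0.15) and *KNAT3* with spike-in scaling (0.18).

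Genes that act with or around the *KNOX* genes were followed in a list of 39 loci, of which 37 were tested. Of these 22 passed towards the meristem and 5 towards the leaf, against 27.1% and 21.6% of all loci tested, and 10 and 2 did so by at least 4 times, against 6.55% and 6.41%. The median difference was 0.73, against 0.10 for all loci. After normexp the counts were 3 and 1, with *PNF*, *ATH1* and *ETT* still passing towards the meristem and *SAW2* towards the leaf, so every other call on this list was lost. The list is one of known partners, targets and repressors, and its counts are a description.

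The BELL genes, whose proteins pair with KNOX proteins, included 5 of 13 higher in the meristem and 4 in the leaf, near the shares of all loci (27.1% and 21.6%). *PNF* (AT2G27990), which with *PNY* keeps the shoot meristem able to flower, had signals of 10.08 and 10.34 in the meristem and of 7.01 and 7.09 in the leaf, 8.89-fold higher (3.15, SE 0.15, adjusted p = 0.000654). *BEL1* (AT5G41410), known for its role in ovule integuments, was higher in the leaf, with 10.45 and 10.61 against 5.49 and 5.19 in the meristem. Its difference was -5.19 (SE 0.16, adjusted p = 0.000464), or 36.6-fold, and after normexp -3.45 (adjusted p = 0.0511). It was the gene of the list with the largest difference towards the leaf.

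*KNATM* (AT1G14760), whose protein can bind BELL proteins although it has no homeodomain, had signals of 8.29 and 7.81 in the meristem and of 4.37 and 3.94 in the leaf. The difference was 3.89 (SE 0.25, adjusted p = 0.00103), or 14.9-fold, and 1.42 after normexp (adjusted p = 0.265). Of the OVATE family partners, *OFP1* (AT5G01840) was 7.86-fold higher in the meristem (2.97, SE 0.12, adjusted p = 0.000551). *OFP4* was well above background on no array. It did not count as expressed and was not tested, since its background-subtracted signal was not positive on both arrays of either tissue.

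Of 4 hormone genes downstream of KNOX proteins, 2 were higher in the meristem and 1 in the leaf, against 27.1% and 21.6% of all loci. *GA2OX2* (AT1G30040), which inactivates gibberellin, had signals of 9.63 and 9.92 in the meristem and of 7.32 and 7.42 in the leaf, 5.29-fold higher (2.40, SE 0.16, adjusted p = 0.00105). *GA20OX1* (AT4G25420), which makes gibberellin, was 2.14-fold higher in the leaf (-1.10, SE 0.16, adjusted p = 0.00706). After normexp the differences were 1.71 for *GA2OX2* (adjusted p = 0.0568) and -0.65 for *GA20OX1* (adjusted p = 0.365). *GA2OX4* was not well above background in the leaf and was at least 26.9-fold higher in the meristem against the detection floor. Its log2 difference after normexp was 1.53 (adjusted p = 0.262). The cytokinin synthesis gene *IPT7* gave 4.98 and 5.54 against 5.0 and 5.23, with overlapping tissues, and did not pass (adjusted p = 0.646).

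The boundary genes, which separate organs from the meristem, were mostly higher in the meristem: of 7, 6 were tested, 5 were higher in the meristem and 4 of these by at least 4 times, against 27.1% and 6.55% of all loci. *LOB* (AT5G63090) had signals of 9.20 and 9.02 against 3.92 and 3.94, 36.5-fold higher (5.19, SE 0.13, adjusted p = 0.000464). *CUC3* (AT1G76420) was 6.13-fold higher (2.62, SE 0.15, adjusted p = 0.000816). *CUC1* lacked a usable spot on 1 leaf array. *CUC2* and *BOP1*, not well above background in the leaf, were at least 22.4-fold and 18.4-fold higher against the detection floor. Their log2 differences after normexp were 1.32 (adjusted p = 0.301) and 1.18 (adjusted p = 0.373). After normexp the differences were 2.34 for *LOB* (adjusted p = 0.114) and 0.94 for *CUC3* (adjusted p = 0.427).

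The repressors of *KNOX* genes in leaves gave small differences. Of 9 genes 5 were higher in the meristem and 0 in the leaf, against 27.1% and 21.6% of all loci, with a list median of 0.46 and 0 genes at 4 times. *CLF* (AT2G23380), a histone methyltransferase of the Polycomb group, had signals of 9.40 and 9.09 in the meristem and of 8.32 and 8.36 in the leaf (0.91, SE 0.16, adjusted p = 0.0117). *LHP1* (AT5G17690), which binds the methylated histone, had 10.23 and 10.50 against 9.38 and 9.72 (0.82, SE 0.19, adjusted p = 0.0253). All 3 genes listed as repressed by *AS1* and *AS2* were higher in the meristem, where *AS1* and *AS2* were higher too. *ETT* (AT2G33860) and *ARF4* (AT5G60450), auxin response factors, were 2.81-fold and 2.76-fold higher (1.49, SE 0.12, adjusted p = 0.00162 for *ETT* and 1.46, SE 0.17, adjusted p = 0.00377 for *ARF4*).

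**Figure D5:**
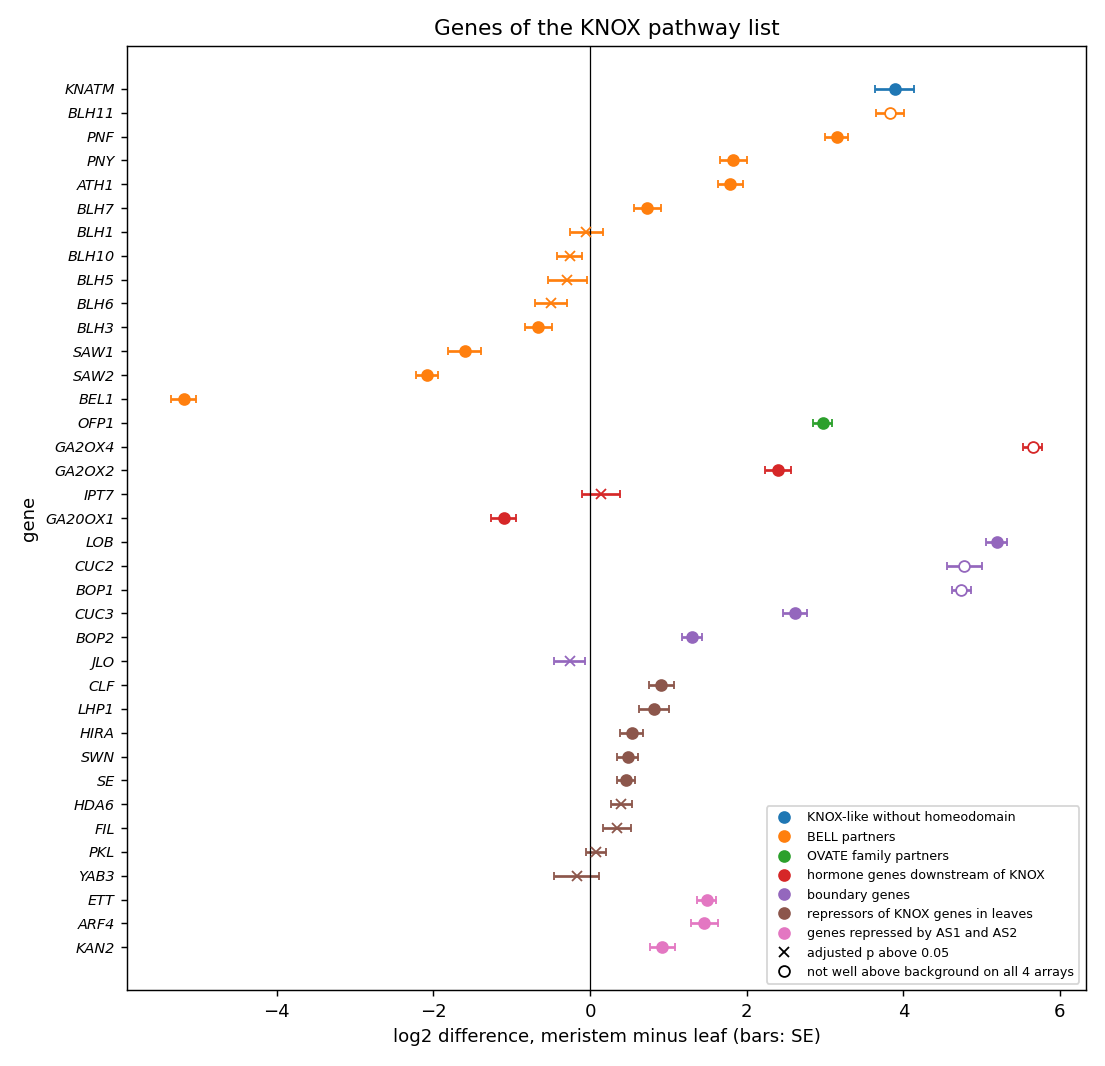
Log2 difference, meristem minus leaf (horizontal axis), with its SE for the 37 tested loci of the pathway list, coloured by group, with crosses for loci that did not pass and open circles for loci not well above background on all 4 arrays. The boundary genes reach from -0.26 (*JLO*, which did not pass and turns to 0.51 with spike-in scaling) to 5.19 (*LOB*), and the BELL genes from -5.19 (*BEL1*) to 3.83 (*BLH11*, open circle). *BLH11* was not well above background in the leaf and was at least 3.44-fold higher against the detection floor. After normexp its difference was 0.25 (adjusted p = 0.958).

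The 10 genes lie on 4 of the chromosomes. The files place the probes at these positions, in a genome build that the files do not name: *STM* at chr1:23062475-23062534, *KNAT1* at chr4:5148057-5148116, *KNAT2* at chr1:26585746-26585805, *KNAT6* at chr1:8301684-8301743, *KNAT3* at chr5:8737943-8738096. *KNAT4* lies at chr5:3512941-3513000, *KNAT5* at chr4:15495846-15495905, *KNAT7* at chr1:23343928-23343987, *AS1* at chr2:15788913-15788972 and *AS2* at chr1:24404093-24404152. Exon and UTR positions were not assigned without an annotation of that build.

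The loci on either side of the 10 genes were compared between the tissues as well. Of 20 neighbours, 19 were tested, 2 were higher in the meristem and 4 in the leaf, against 27.1% and 21.6% of all loci, and 0 reached 4 times, against 6.55% and 6.41%. Their differences ranged from -1.87 to 0.61. Next to *STM*, AT1G62350 differed by 0.41 (adjusted p = 0.0552) and AT1G62370 by 0.50 (adjusted p = 0.0286). Both neighbours of *KNAT6* were higher in the leaf, *MENG* (AT1G23360) by 0.90 (log2 difference -0.90) and AT1G23390 by 1.87 (log2 difference -1.87), whereas *KNAT6* itself was higher in the meristem.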

How the data were processed

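Per the file headers, the authors made the deposited intensities of 4 one-colour arrays with Feature Extraction 9.5.3.1, which subtracts background from each spot and does not scale between arrays. All arrays share 1 slide and 1 scan. Control spots and outlier spots (10 to 12 per array) were left out. The log2 processed signal minus the 75th percentile of its array, plus the mean percentile, was used, with the brightest probe per locus. Meristem and leaf arrays entered 1 fit in limma 3.58.1 (R 4.3.3), with Benjamini-Hochberg adjustment over 23260 expressed loci. Where no array of a tissue was well above background, a fold is given as at least the value against the detection floor. That bound depends on how background was removed and does not hold after normexp. Symbols were checked against the gene table of RefSeq. The procedure was tested on simulated data. Figures were drawn with matplotlib 3.10.9.

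The genes, lists and tests were chosen with earlier results of these data known. Named are the 10 genes, the 2 loci with the largest difference per pathway group among those that passed and were well above background on all 4 arrays, *KNATM*, and the 3 loci most like *STM*. Other list members were named after their values were seen. Alternatives were normexp, quantile, median, no and spike-in scaling (224 spots), other filters, the mean of probes, the methods' t-test, a replicate block and leaving out each array.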

Additional observations from a re-analysis of the deposited data

Results flagged for a closer look

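Probes that name no locus and lie within 1000 bases of the probe of 1 of the 10 genes, a window chosen after the values were seen, gave a signal well above background in 4 cases, all of them placed in the opposite direction to the gene's probe. The lowest signals well above background lay between 2.87 and 3.22 on the scaled log2 scale. These probes were used in no comparison, and how strand was kept in labelling is not given in the sources used here.

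The probe 134 bases from that of *STM* gave 4.21 and 4.27 on the meristem arrays, well above background on both, and 1.10 and 0.84 on the leaf arrays, where it was not. The probe offset by 8 bases from that of *KNAT2*, and so covering most of the same stretch, gave 2.61 and 3.35 on the meristem arrays, well above background on the second only, and 1.37 and 0.82 on the leaf arrays. The probe 466 bases from that of *AS1* gave meristem signals of 5.18 and 5.20 and leaf signals of 4.28 and 3.69, each of them well above background. The other probe near *AS1*, 821 bases away, gave 4.97 and 4.90 in the meristem and 3.92 and 3.73 in the leaf, also on all 4 arrays.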

How the results depend on the processing

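Over 15 alternatives, *STM*, *KNAT1*, *KNAT2*, *KNAT4* and *AS1* kept direction and call. Of the values of the 10 genes under these 133 kept both, 9 lost the call, 5 gained it and 3 changed sign: *KNAT5* with median scaling (-0.15) and without meristem replicate 2 (-0.04, in a range of -0.04 to 0.33 over the arrays left out), and *KNAT3* with the spike-in controls (0.18). The 2 genes higher in the leaf fell to 1 with normexp, no scaling and spike-in scaling, and the 1 at 4 times to 0 with the last. Of all loci, 6301 passed towards the meristem and 5014 towards the leaf, 1524 and 1492 of them by at least 4 times. With normexp these counts were 547, 1305, 252 and 655. With the spike-in controls they were 15270, 2675, 3005 and 758. Median scaling gave 4088 towards the meristem and no scaling 2836 towards the leaf. The methods' t-test with Benjamini-Hochberg values gave 2808, 2802 and, at 4 times towards the meristem, 961. The pathway list (22 and 5) gave 3 and 1 with normexp, and 3 towards the leaf with no scaling or spike-in scaling and 2 with that t-test. The cause was not tested. The meristem's share of the loci at 4 times was 50.5%, against 37.8% with median scaling, 27.8% with normexp, 68.2% without scaling and 79.9% with the spike-in controls, and the median of all loci moved from 0.10 to -0.20, -0.07, 0.51 and 0.86.

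Leaving out 1 array at a time gave 5 to 7 of the 10 genes higher in the meristem and 1 to 2 in the leaf, with 4 and 1 at 4 times each time. Over all loci the ranges were 3737 to 5921 and 3676 to 4848, and at 4 times 1503 to 1592 and 1451 to 1576. The pathway list ranged from 15 to 21 and from 4 to 6. All loci towards the meristem were 3737 without leaf replicate 1 and 3970 without leaf replicate 2. A tissue left with 1 array was taken to vary like the other. The replicate numbers are no pairing given by the labels, and the deviations of the arrays numbered 1 correlated at 0.0902. With replicate number as a block, 6064 and 4851 loci passed, 1523 and 1491 at 4 times, with 6 and 2 of the 10 genes and 19 and 4 of the pathway list. Precision is limited by 2 arrays per tissue and, for class I genes in the leaf, by spots near background.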
